A study of Homo sapiens and Pan troglodytes with 11 samples.

Results

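The covariation of genes between single cells was described in excitatory neurons made from C3649, a chimpanzee induced pluripotent stem cell line, in the pair of libraries that carried a panel of 21 genes (chimpanzee 3 and chimpanzee 4, both of screen replicate 2). A cell was kept when GAPDH, the abundant glycolytic housekeeping gene of the panel, held at most 80% of its gene UMIs and the other 20 genes together held at least 60 UMIs. A UMI, or unique molecular identifier, marks 1 counted molecule. These limits left 5610 of 5825 cells in chimpanzee 3 and 3915 of 4428 in chimpanzee 4, together 9525 of 10253 deposited cells of these libraries and of 41950 in the series. In chimpanzee 3, 214 cells fell short of 60 UMIs and 2 exceeded the GAPDH limit, and in chimpanzee 4 the numbers were 513 and 7.

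The series asks what human accelerated regions do in 2-week-old neurons of human and chimpanzee, using CRISPR interference, in which a guide RNA leads a nuclease-dead Cas9 repressor to a chosen site. All libraries of the study were from such a screen, so no library without it stood beside these, and the cells carried any of 28 guide barcodes. The names of the barcodes show neither target nor control, and each species is 1 cell line. The labels do not say whether the libraries are separate cultures. In HyPR-seq, gene-specific probes are hybridised in fixed cells and ligated, and the products are amplified with a barcode per droplet, so a gene's level depends on its probes and was not compared between genes. The labelled cell type could not be checked, because 0 of 19 listed markers of neurons, stem cells, progenitors and astrocytes were on the panel.

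Kept cells had a median of 235 gene UMIs in chimpanzee 3 and 204 in chimpanzee 4, of which a median of 51.7% and 47.6% were GAPDH. The median over the other 20 genes was 113 and 105 UMIs. Cell barcodes are 12 bases long, and some were found in more than 1 library. Chimpanzee 3 shared 1003 barcodes with human 4 and 995 with human 5, the human libraries of the same panel, and 880 barcodes were in all 3. Chimpanzee 4 shared 1436 with chimpanzee 5 and 234 with human 6, and chimpanzee 3 and chimpanzee 4 shared 9 with each other. Among the kept cells, 1121 of chimpanzee 3 and 1417 of chimpanzee 4 had a barcode that was also in another library, against 4489 and 2498 that did not. The variation of AKAP6 and ONECUT2, the pairs that held and the comparisons between libraries are therefore given with and without these cells. So are AKAP6 levels in cells with the fewest and most ONECUT2 UMIs, and the classes by leading guide barcode. Most other results, such as the correlations with depth and GAPDH, include them.

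Neurons derived from stem cells can differ in maturation and subtype within 1 dish, and genes that mark such a state tend to be detected together in the same cells. Genes can also covary because each cell yields a limited number of molecules, since a molecule counted for one gene is then not counted for another. The panel held 19 genes described here: the transcription factors ONECUT2, SCRT2, GLI2, NPAS3 and BHLHE40, the signalling, adhesion and traffic genes AKAP6, TENM3, PLCL2, ARHGAP5, PLXNC1, SOCS2 and TBC1D5, and BAZ1A, BTG1, DAZL, DCTD, PSMA6, SRXN1 and NRSN2. ONECUT2 is a cut-homeodomain factor of developing neurons, and AKAP6 is an anchoring protein that holds protein kinase A and its partners at the nuclear envelope.

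The promoters of AKAP6, ONECUT2, SCRT2 and PLCL2 are shown first, since AKAP6 and ONECUT2 are in most pairs that held and SCRT2 and PLCL2 were positively correlated with both. Each window runs from 250 bases before to 50 after the start of the gene, from RefSeq on the human assembly GRCh38.p14, and is not the chimpanzee sequence. Windows were available for 17 of the 19 genes. Capitals mark CAGGTG or its reverse complement CACCTG, a form of the E-box that Scratch-family repressors such as SCRT2 are known to bind, and ATCAAT or its reverse complement ATTGAT, a core that Onecut factors are known to bind.
AKAP6 (chr14:32329048-32329347, plus strand): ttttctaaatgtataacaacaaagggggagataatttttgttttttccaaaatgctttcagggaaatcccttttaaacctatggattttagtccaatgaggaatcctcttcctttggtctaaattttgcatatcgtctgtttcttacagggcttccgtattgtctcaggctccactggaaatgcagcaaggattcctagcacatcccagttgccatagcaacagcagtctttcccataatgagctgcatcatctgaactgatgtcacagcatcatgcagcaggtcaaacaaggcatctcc
ONECUT2 (chr18:57435124-57435423, plus strand): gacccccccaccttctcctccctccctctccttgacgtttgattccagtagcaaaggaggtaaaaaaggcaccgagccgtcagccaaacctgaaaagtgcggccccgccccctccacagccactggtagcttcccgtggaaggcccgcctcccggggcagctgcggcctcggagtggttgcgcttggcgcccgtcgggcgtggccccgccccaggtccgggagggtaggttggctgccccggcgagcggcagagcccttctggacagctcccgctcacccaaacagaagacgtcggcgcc
SCRT2 (chr20:675753-676052, minus strand): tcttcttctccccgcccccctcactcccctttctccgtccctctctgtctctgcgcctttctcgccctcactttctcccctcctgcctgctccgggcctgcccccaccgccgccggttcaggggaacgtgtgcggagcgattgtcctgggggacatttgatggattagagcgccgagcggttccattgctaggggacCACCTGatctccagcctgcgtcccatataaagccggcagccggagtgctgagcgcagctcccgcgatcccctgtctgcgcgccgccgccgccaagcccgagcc
PLCL2 (chr3:16884705-16885004, plus strand): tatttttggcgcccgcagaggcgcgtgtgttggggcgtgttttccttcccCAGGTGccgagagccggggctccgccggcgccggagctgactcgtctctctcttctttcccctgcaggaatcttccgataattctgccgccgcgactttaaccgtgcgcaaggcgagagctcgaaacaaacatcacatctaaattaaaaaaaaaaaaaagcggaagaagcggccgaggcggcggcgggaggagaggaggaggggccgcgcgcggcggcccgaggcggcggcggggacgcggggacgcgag
The window of SCRT2 holds 1 CAGGTG-type match, that of PLCL2 holds 1, and those of AKAP6 and ONECUT2 hold 0 of either motif. Of 35116 human promoter windows, 20.6% hold CAGGTG on either strand and 6.26% hold ATCAAT. Among the 17 genes with a window, 6 hold the first motif in at least 1 of their windows (GLI2, NPAS3, PLCL2, SCRT2, SRXN1 and TBC1D5) and 2 the second (GLI2 and TBC1D5). These are counts of genes, which can have several windows, and the percentages are of single windows, so they are not compared. The windows also differ in composition: G and C make up 41.3% of that of AKAP6, with 2 CG dinucleotides, and 68% of that of ONECUT2, with 24. SCRT2 has 66.7% with 26 and PLCL2 63.7% with 39. A match describes the letters of the window and does not mark a bound site.

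How much each gene varied between cells was measured first, since a gene that does not vary beyond counting cannot covary. Each cell was thinned to 60 UMIs outside GAPDH, and means and variances were averaged over all possible thinnings. The variance over cells was then divided by the variance of cells drawn from the library's mean profile, so that a ratio of 1 is counting noise alone. AKAP6 had the highest ratio in both libraries, 2.97 in chimpanzee 3 and 3.75 in chimpanzee 4. ONECUT2 followed with 2.69 and 3.04. The bHLH-PAS factor NPAS3 had 2.21 and 2.63, and the teneurin TENM3, an adhesion protein of axons and synapses, had 2.01 and 2.51.

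The antiproliferative gene BTG1 had ratios of 1.65 and 1.87, SCRT2 1.61 and 1.67, and BAZ1A, a subunit of ISWI chromatin remodellers, 1.54 and 1.63. DCTD, which deaminates deoxycytidylate, had 1.36 and 1.41, and the Hedgehog factor GLI2 had 1.24 and 1.34. Most of the other genes lay closer to counting noise. ARHGAP5 had 1.21 and 1.31, the vesicle protein NRSN2 1.198 and 1.30, and the proteasome subunit PSMA6 1.18 and 1.24. Ratios for the inactive phospholipase PLCL2 were 1.16 and 1.22, for the semaphorin receptor PLXNC1 1.17 and 1.18, and for the sulfiredoxin gene SRXN1 1.16 and 1.2. The cytokine-signalling suppressor SOCS2 had 1.18 and 1.12, and the Rab regulator TBC1D5 had 1.10 and 1.16. DAZL, an RNA-binding protein of germ cells, was nearest to 1 with 1.02 and 1.05. The clearest difference between the libraries in the other direction was the bHLH repressor BHLHE40, at 1.32 in chimpanzee 3 and 1.12 in chimpanzee 4.

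**Figure D1:**
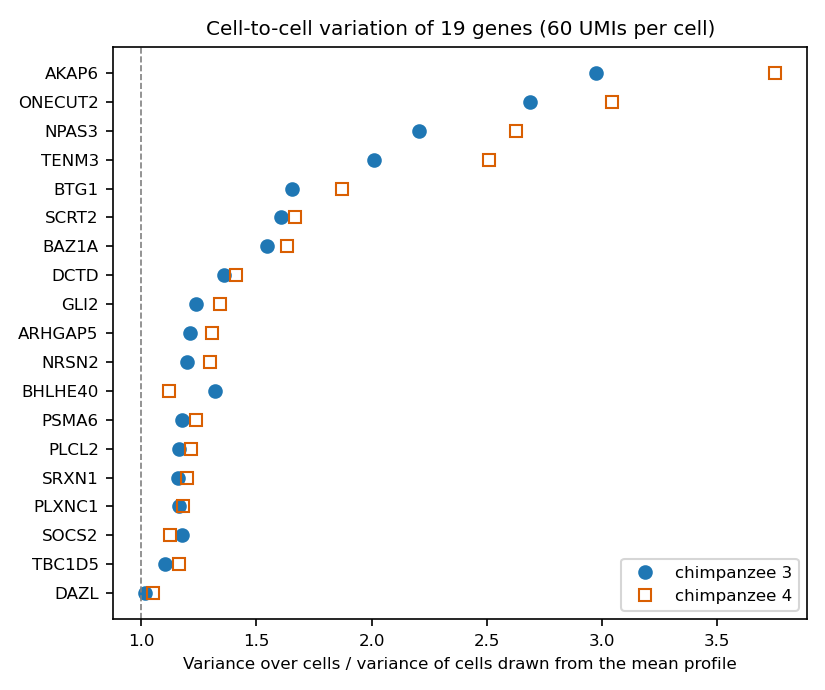
Variance of each gene's count over cells divided by that of cells drawn from the library's mean profile (x axis, no unit), for 19 genes (y axis) in chimpanzee 3 (filled circles) and chimpanzee 4 (open squares), cells thinned to 60 UMIs outside GAPDH. The dashed line at 1 is counting noise. AKAP6 and ONECUT2 lie farthest to the right in both libraries and DAZL lies at 1.02 and 1.05.

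Relative to the mean level the order of the genes was different. AKAP6 had a mean of 4.55 and 4.35 UMIs per 60, and its coefficient of variation after removal of counting variance was 63.9% in chimpanzee 3 and 77.3% in chimpanzee 4. ONECUT2 was lower, at 1.09 and 1.17 UMIs per 60, with a corrected coefficient of variation of 124% and 132%. The corrected values of SCRT2 were 92.5% and 100.7%, those of GLI2 43.8% and 55.5%, and those of TENM3 30.1% and 34.6%. BHLHE40, with a mean of 0.184 and 0.223 UMIs per 60, had 133% and 73.3%, SOCS2 77.9% and 63.2%, and SRXN1 66.5% and 73.4%. BHLHE40 was thus highest in chimpanzee 3 and ONECUT2 in chimpanzee 4, and AKAP6 stood below SCRT2 in both. In cells whose barcode was in no other library, the variance ratio of AKAP6 was 3.48 and 4.19 and that of ONECUT2 was 3.08 and 3.34. In the cells with shared barcodes these were 1.05 and 1.17 in chimpanzee 3, close to counting noise, and 2.99 and 2.51 in chimpanzee 4.

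For each pair of genes, Pearson's correlation over cells was compared with the value that cells drawn from the mean profile give. That value is below 0 because the counts of a thinned cell sum to 60. A pair was said to hold when its correlation lay at least 0.10 from the mean-profile value, in the same direction, in both libraries. Of the 190 pairs of the 20 genes, 15 held, or 7.89%, of which 7 were positive (3.68%) and 8 negative (4.21%). In chimpanzee 3 alone the same 7 and 8 pairs were past 0.10, and in chimpanzee 4 alone 11 positive (5.79%) and 11 negative (5.79%) were. At a limit of 0.05, 38 pairs (20.0%) did. The correlations are over 5610 and 3915 cells and carry no p-value, since cells of a library are not replicates.

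In the larger set, the pairs behaved alike in both libraries. The direction was the same for 168 of 190 pairs (88.4%), and across pairs the distances from the mean-profile value correlated with a Pearson's r of 0.973 between the libraries. Pairs share genes, so this r describes the agreement and has no test. In 130 pairs (68.4%) the distance was under 0.05 in both libraries, and the median over all pairs was 0.00455 in chimpanzee 3 and 0.00513 in chimpanzee 4. Of the 15 pairs that held, 12 were larger in chimpanzee 4, and 13 included AKAP6 or ONECUT2.

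**Figure D2:**
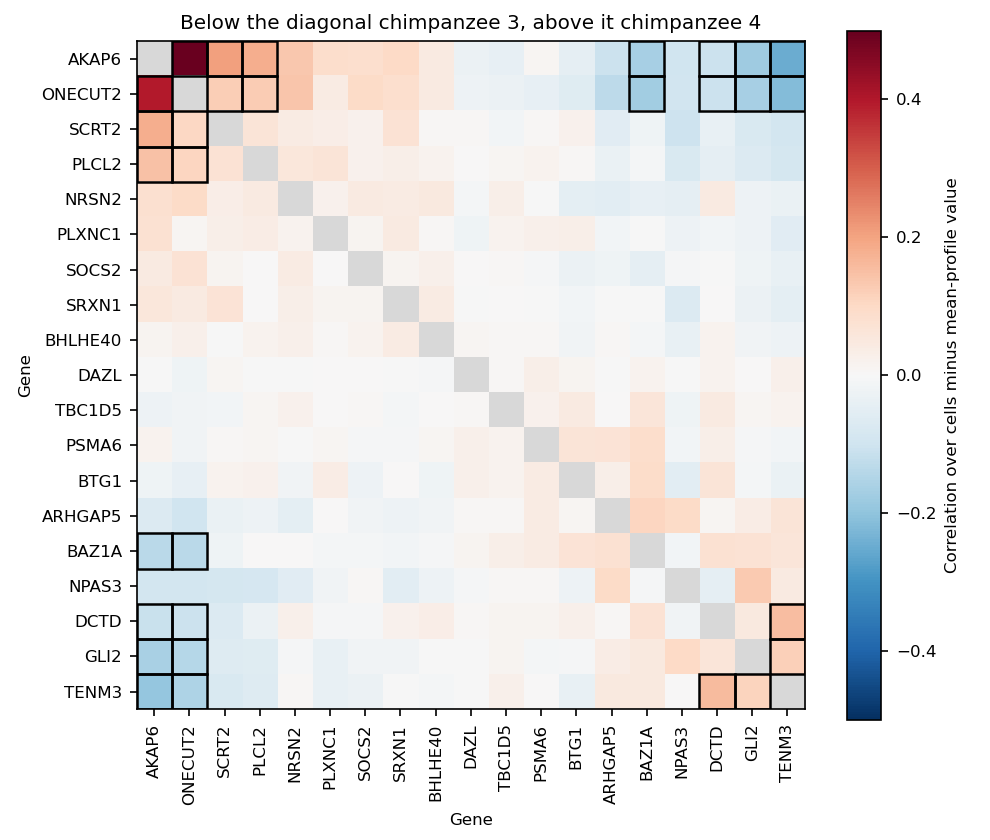
Correlation over cells minus the mean-profile value (colour scale, no unit) for 171 pairs of 19 genes, with chimpanzee 3 below the diagonal and chimpanzee 4 above it. Boxes mark the 15 pairs that held in both libraries. The strongest colour is AKAP6 with ONECUT2, at 0.395 and 0.493.

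AKAP6 and ONECUT2 formed the strongest pair in both libraries. Their raw correlation was 0.356 in chimpanzee 3 and 0.453 in chimpanzee 4, where the mean profile gives -0.0390 and -0.0394, so the distance was 0.395 and 0.493. After correction for counting variance, the correlation of their shares was 0.573 and 0.663. The next pair by size among the named genes, AKAP6 with TENM3, had -0.192 and -0.248.

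The other positive pairs of these genes involved SCRT2, a neuronal repressor of the Scratch family, and PLCL2. AKAP6 with SCRT2 had a distance of 0.183 in chimpanzee 3 and 0.206 in chimpanzee 4, and AKAP6 with PLCL2 had 0.146 and 0.182. With ONECUT2, PLCL2 had 0.107 and 0.129, and SCRT2 had 0.103 and 0.123. The raw correlations of these 4 pairs were above 0 too, between 0.0876 and 0.177. They are weak, and with means of 0.788 and 0.785 UMIs per 60 for PLCL2 and 0.713 and 0.663 for SCRT2 they rest on sparse counts.

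The negative pairs set AKAP6 and ONECUT2 against the same 4 genes, TENM3, GLI2, BAZ1A and DCTD. AKAP6 with TENM3 had a distance of -0.192 and -0.248, and ONECUT2 with TENM3 had -0.155 and -0.215. GLI2 had -0.162 and -0.179 with AKAP6, and -0.141 and -0.168 with ONECUT2. Both genes were thus opposed to a teneurin and to a Hedgehog effector. BAZ1A had -0.134 and -0.166 with AKAP6 and -0.135 and -0.172 with ONECUT2. DCTD was the weakest of the 4, at -0.112 and -0.107 with AKAP6 and at -0.107 and -0.107 with ONECUT2, and neither of its pairs held with Spearman's correlation or on a log2 scale. BAZ1A with ONECUT2 did not hold with Spearman's correlation either, at -0.0842 and -0.111.

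Only 2 pairs that held involved neither AKAP6 nor ONECUT2. DCTD with TENM3 had a distance of 0.158 and 0.155, but its raw correlation was only 0.00543 and -0.0106, where the mean profile gives -0.153 and -0.165. After correction for counting variance, the correlation of their shares was 0.268 and 0.185. Across cells with 0 to 5 TENM3 UMIs and cells with 18 or more, mean DCTD was 6.59 and 6.82 per 60 in chimpanzee 3 and 6.66 and 6.43 in chimpanzee 4. These means count TENM3 within the 60 UMIs, so cells with more TENM3 had fewer UMIs left for DCTD. GLI2 with TENM3 had a distance of 0.110 and 0.120 and a raw correlation of 0.0467 and 0.0562. Neither pair stood past 0.10 in both libraries once AKAP6 and ONECUT2 were left out of the 60 UMIs, a setting chosen after seeing the data. DCTD with TENM3 then had 0.101 and 0.0807, and GLI2 with TENM3 had 0.0695 and 0.0670.

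Under that setting 1 of the pairs among the remaining genes reached 0.10 in both libraries. This was SCRT2 with PLCL2, at 0.108 and 0.121. The next were PLCL2 with NRSN2, at 0.0900 and 0.130, and SCRT2 with SRXN1, at 0.0896 and 0.111. SCRT2 and PLCL2 were thus also weakly correlated with each other when the UMIs of AKAP6 and ONECUT2 were not counted. This setting did not hold the levels of AKAP6 and ONECUT2 fixed. Whether SCRT2 and PLCL2 are correlated among cells alike in AKAP6 and ONECUT2 was not tested.

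Just outside the limit lay GLI2 with NPAS3 (0.0992 and 0.133), ARHGAP5 with ONECUT2 (-0.0977 and -0.130), NRSN2 with ONECUT2 (0.0967 and 0.139) and ARHGAP5 with NPAS3 (0.0954 and 0.0961). Just inside it were ONECUT2 with SCRT2 and DCTD with ONECUT2. The limit cuts through a graded series of values. NPAS3, although among the genes that varied most, was in 0 of the pairs that held, with -0.0903 and -0.0998 against AKAP6 and -0.0900 and -0.0948 against ONECUT2. BTG1 was also in 0, and its strongest partner was BAZ1A at 0.0684 and 0.0909. High variation alone did not place a gene among the pairs that held by distance from the mean-profile value. By the counting-corrected correlation of shares, NPAS3 had -0.280 and -0.265 with AKAP6 and -0.241 and -0.251 with SCRT2. ONECUT2 with SCRT2, which held, had 0.195 and 0.220. The absence of NPAS3 from the pairs that held thus depends on the measure.

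Cells were next arranged by ONECUT2, in 1 seeded thinning, to show the levels behind the correlations. Cells with at least 5 of 60 UMIs from ONECUT2 made up 4.10% of chimpanzee 3 (230 cells) and 5.90% of chimpanzee 4 (231 cells), where the mean profile gives 0.479% and 0.627%. Cells with 0 ONECUT2 UMIs made up 47.7% and 47.4%, against 33.2% and 30.8% from the mean profile. Both ends of the distribution were thus fuller than counting noise gives. Mean AKAP6 was 3.71, 4.32, 5.26, 6.67 and 9.31 UMIs per 60 over cells with 0, 1, 2, 3 to 4 and at least 5 ONECUT2 UMIs in chimpanzee 3. In chimpanzee 4 it was 3.21, 4.07, 5.34, 7.21 and 10.1. The order was the same in both libraries, with a higher AKAP6 mean in each successive class. In cells with unshared barcodes, from another seeded thinning, 5.08% and 6.37% had at least 5 ONECUT2 UMIs. Between cells with 0 and cells with at least 5, mean AKAP6 there went from 3.57 to 9.57 and from 3.01 to 10.9. Among cells with shared barcodes, 0.357% in chimpanzee 3 and 4.59% in chimpanzee 4 had at least 5.

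Between the lowest and the highest ONECUT2 class, mean PLCL2 went from 0.720 to 1.22 in chimpanzee 3 and from 0.710 to 1.06 in chimpanzee 4. Mean SCRT2 went from 0.620 to 0.874 and from 0.558 to 0.996. In the other direction, TENM3 went from 10.2 to 6.85 and from 11.4 to 6.15, GLI2 from 1.38 to 0.491 and from 1.27 to 0.411, and BAZ1A from 5.55 to 2.99 and from 5.42 to 3.00. DCTD went from 6.89 to 5.29 and from 7.14 to 5.53. GLI2 thus had the lowest ratio of these, 0.357 and 0.324 of its level in cells without an ONECUT2 UMI.

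**Figure D3:**
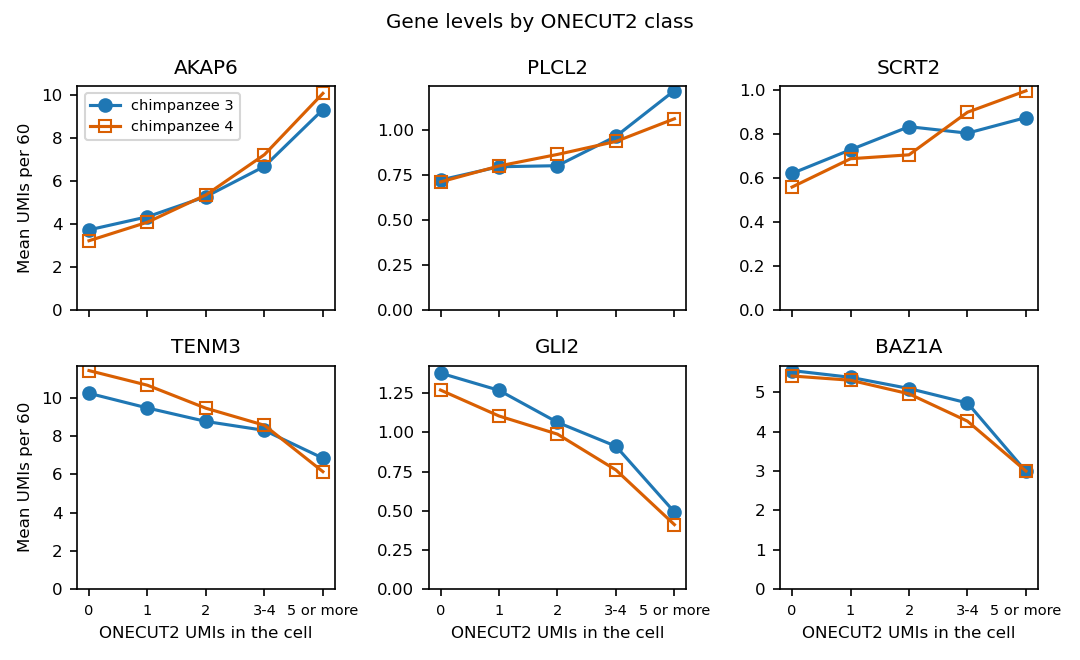
Mean UMIs per 60 (y axis, from 0, a separate scale in each panel) of 6 genes in cells grouped by their own ONECUT2 UMIs (x axis), in chimpanzee 3 (filled circles) and chimpanzee 4 (open squares), from 1 seeded thinning. Means are over 230 to 2674 cells and have no error bar, since cells are not replicates. AKAP6 goes from 3.71 to 9.31 and from 3.21 to 10.1, while TENM3, GLI2 and BAZ1A go down.

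Since all counts sum to 60, more AKAP6 and ONECUT2 leave fewer UMIs for every other gene. Outside these 2 genes, the remaining UMIs went from 56.3 to 43.6 between the lowest and highest class in chimpanzee 3, a ratio of 0.774, and from 56.8 to 42.8 in chimpanzee 4, a ratio of 0.754. Relative to those remaining UMIs, DCTD was level between the classes, with ratios of 0.992 and 1.03, and BTG1 had 0.991 and 0.990. GLI2 was still lower, at 0.460 and 0.430, as were BAZ1A, at 0.696 and 0.735, and TENM3, at 0.864 and 0.713. DCTD thus kept its share of the remaining UMIs, while GLI2 had a lower share. PLCL2 had ratios of 2.18 and 1.98, SCRT2 1.82 and 2.37, and NRSN2 1.75 and 1.73 relative to the remaining UMIs. SOCS2 had 1.92 and 2.60, SRXN1 1.75 and 2.41, and BHLHE40 1.89 and 2.04, all from means below 1 UMI per cell.

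An arrangement by AKAP6 gave a like picture. Cells with at least 12 AKAP6 UMIs of 60 made up 4.78% and 6.54% of cells, where the mean profile gives 0.161% and 0.110%. Their mean ONECUT2 was 3.07 in chimpanzee 3 and 3.62 in chimpanzee 4, against 0.602 and 0.583 in cells with at most 2 AKAP6 UMIs. Relative to UMIs outside both genes, the ratio of the highest to the lowest class was 2.64 and 2.83 for SCRT2, 2.20 and 2.38 for PLCL2, 0.517 and 0.527 for GLI2, and 1.00 and 1.05 for DCTD. GLI2 was again lower relative to the remaining UMIs, SCRT2 and PLCL2 higher, and DCTD near 1.

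Groups of genes by function were read by their counts, beside the 15 of all 171 named pairs (8.77%) that held. Among the 10 pairs of transcription factors, 1 was positive (ONECUT2 with SCRT2) and 1 negative (GLI2 with ONECUT2), with medians of -0.0137 in chimpanzee 3 and -0.0270 in chimpanzee 4. Among 21 pairs of signalling, adhesion and traffic genes, 1 was positive (AKAP6 with PLCL2) and 1 negative (AKAP6 with TENM3), with medians of 0.00184 and 0.00460. The 3 pairs of BTG1, BAZ1A and DAZL and the 3 of PSMA6, DCTD and SRXN1 held 0 each. The medians over all 171 pairs were 0.00259 and 0.00412. Most pairs that held crossed these groups, as do most of the 171 named pairs.

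The panel also contains neighbours in the genome, on the human build. PSMA6, BAZ1A, ARHGAP5, NPAS3 and AKAP6 are all on chromosome 14, TENM3 and DCTD on chromosome 4, BTG1, SOCS2 and PLXNC1 on chromosome 12, NRSN2, SRXN1 and SCRT2 on chromosome 20, and DAZL, PLCL2 and TBC1D5 on chromosome 3. Of 20 pairs of neighbours, 1 held as positive (DCTD with TENM3) and 1 as negative (AKAP6 with BAZ1A), together 10%, close to the 8.61% of the other pairs. Their medians were 0.0136 in chimpanzee 3 and 0.0124 in chimpanzee 4, against 0.00184 and 0.00266 for the 151 other pairs. AKAP6 and ONECUT2 are on different chromosomes, 14 and 18.

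Cells with barcodes found in another library differed in covariation between the libraries. In chimpanzee 3, the 1121 such cells had distances of 0.00233 to 0.0494 in size over the 15 pairs, and 0 reached 0.10. Some pairs there had the opposite direction, such as ONECUT2 with PLCL2 at -0.0235 and AKAP6 with BAZ1A at 0.0143. AKAP6 with ONECUT2 was at 0.0400 there and at 0.426 in the 4489 other cells, in which 15 of 15 pairs were past 0.10. In chimpanzee 4, AKAP6 with ONECUT2 was at 0.412 in the 1417 cells with shared barcodes and at 0.526 in the others, and 13 and 15 of the pairs were past 0.10. Without all cells of shared barcodes, 9 positive and 9 negative pairs held, and the 15 were among them. The pairs that held thus did not rest on these cells.

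**Figure D4:**
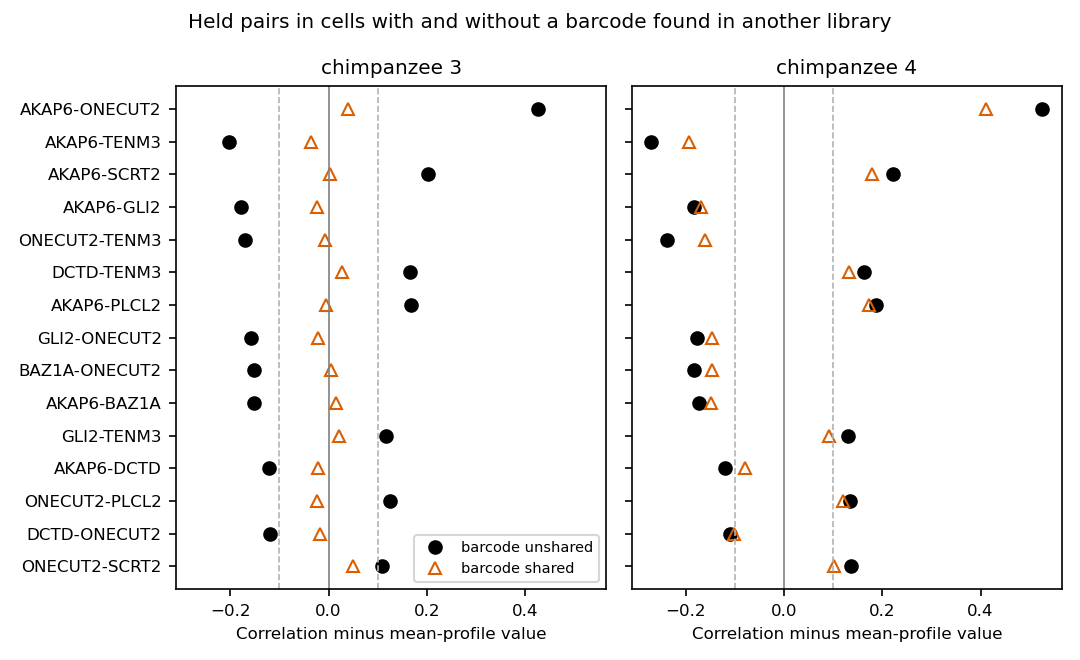
Correlation minus the mean-profile value (x axis, no unit) of the 15 pairs (y axis) in cells whose barcode was in no other library (filled circles) and in cells whose barcode was (open triangles), for chimpanzee 3 (left) and chimpanzee 4 (right). Dashed lines mark -0.10 and 0.10. In chimpanzee 3 all triangles lie between the dashed lines.

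Guide barcodes set the cells with shared barcodes apart as well. In chimpanzee 3 the guide barcode with most UMIs held a median of 9.52% of a cell's guide UMIs in cells with shared barcodes and 44.3% in the others, and in chimpanzee 4 it held 35.7% and 47.1%. The median UMIs outside GAPDH were 87 and 125 in chimpanzee 3, and 126 and 95 in chimpanzee 4. Shared cells of chimpanzee 3 still had means near those of the other cells of the library, with 4.84 and 4.47 UMIs per 60 for AKAP6 and 1.12 and 1.09 for ONECUT2. The leading guide barcode was the same in both libraries for 27.9% of barcodes shared with human 4, 23.4% with human 5, and 42.0% for those that chimpanzee 4 shared with chimpanzee 5. The part of these differences in the covariation was not tested.

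Cells were also grouped by how far 1 guide barcode dominated. With the leading barcode under 20% of guide UMIs, AKAP6 with ONECUT2 was at 0.212 in chimpanzee 3 (1556 cells) and 0.348 in chimpanzee 4 (731 cells). From 20 to 50% it was at 0.374 and 0.424, and at 50% or more at 0.478 and 0.577. The number of the 15 pairs past 0.10 was 2, 12 and 15 in chimpanzee 3 and 10, 12 and 15 in chimpanzee 4. Median UMIs outside GAPDH in these classes were 95, 134 and 113 in chimpanzee 3 and 98, 110 and 103 in chimpanzee 4. The lowest class thus also had the lowest median in both libraries, and the part of depth was not tested. Cells with barcodes found in another library made up 1055, 58 and 8 cells of the classes in chimpanzee 3 and 323, 653 and 441 in chimpanzee 4. Without them, AKAP6 with ONECUT2 was at 0.362, 0.376 and 0.479 in chimpanzee 3 and at 0.377, 0.445 and 0.597 in chimpanzee 4, and 13, 12 and 15 of the 15 pairs were past 0.10 in chimpanzee 3 and 9, 11 and 15 in chimpanzee 4. The low value of the lowest class in chimpanzee 3 was thus mostly that of the cells with shared barcodes, while the class of 50% or more was highest with and without them. In cells assigned to 1 guide barcode (at least 5 UMIs and 70% of guide UMIs, 680 and 696 cells), all 15 pairs were past 0.10, and they were again after the mean of each barcode class was subtracted.

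Depth and GAPDH were compared with each gene over cells. AKAP6 correlated with the GAPDH share at -0.206 and -0.225 and ONECUT2 at -0.116 and -0.117, while DCTD correlated at 0.152 and 0.223. The median GAPDH share was 52.0% in cells with 0 ONECUT2 UMIs and 46.9% in cells with at least 5 in chimpanzee 3, and 48.6% and 45.3% in chimpanzee 4. With log10 gene UMIs, AKAP6 correlated at -0.0440 and -0.00353 and ONECUT2 at 0.0184 and 0.0796. After regression on depth and GAPDH share, 8 positive and 9 negative pairs held, 12 of the 15 among them. The 3 lost were AKAP6 with DCTD, at -0.0774 and -0.0703, DCTD with ONECUT2, at -0.0905 and -0.0730, and ONECUT2 with PLCL2, at 0.0953 and 0.131. Doublets were not called, and a droplet with several cells was not told apart.

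Human libraries of the same panel were set beside these, with 1444 kept cells of WTC11 in human 4 and 3565 in human 5. The filter kept 37.8% of the cells of human 4, where 1712 of 3825 exceeded the GAPDH limit, and 77.1% in human 5, against 96.3% and 88.4% in the chimpanzee libraries. All 15 pairs had the same direction in both human libraries, and 8 were past 0.10 in both. AKAP6 with ONECUT2 was at 0.217 in human 4 and 0.228 in human 5, below 0.395 and 0.493. AKAP6 with PLCL2 was at 0.0346 and 0.0167, against 0.146 and 0.182, and AKAP6 with TENM3 at -0.0579 and -0.0519, against -0.192 and -0.248. The chimpanzee values were larger in size without overlap in 9 of the 15 pairs, which had been selected by their chimpanzee values. No share over all pairs stands beside this count, so it does not describe the species in general.

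BAZ1A with ONECUT2 went the other way, at -0.333 and -0.306 in human and -0.135 and -0.172 in chimpanzee. The human values were larger without overlap in 4 pairs, BAZ1A with ONECUT2, AKAP6 with BAZ1A, ONECUT2 with PLCL2 and DCTD with ONECUT2, and the species overlapped in ONECUT2 with TENM3 and ONECUT2 with SCRT2. With 2 libraries against 2, the two-sided exact permutation test over 6 splits cannot give a p below 0.333, so no difference between species could pass a threshold of 0.05. In cells with unshared barcodes, 13 of 15 pairs were again without overlap, and AKAP6 with ONECUT2 was at 0.221 and 0.260 in human. The share without overlap over all pairs is not given here. Pairs that did not hold could also be without overlap, so these counts are not a trait of the 15. NPAS3 with ONECUT2, for example, was at -0.245 and -0.233 in human and at -0.0900 and -0.0948 in chimpanzee. The sizes depend on the level of the genes, which differed: mean AKAP6 was 10.9 and 10.9 UMIs per 60 in human and ONECUT2 2.66 and 3.43. Corrected for counting, the shares of AKAP6 and ONECUT2 correlated at 0.240 and 0.299 in human and at 0.573 and 0.663 in chimpanzee. AKAP6 with TENM3 stayed without overlap, at -0.283 and -0.284 in human and -0.460 and -0.504 in chimpanzee. By this measure the species also overlapped in AKAP6 with DCTD, DCTD with TENM3 and GLI2 with ONECUT2. The last was at -0.392 and -0.554 in human and -0.434 and -0.429 in chimpanzee. ONECUT2 with SCRT2 was larger in human, at 0.387 and 0.564 against 0.195 and 0.220. SCRT2 varied little beyond counting in human, with variance ratios of 1.12 and 1.09. The pairs were selected by their chimpanzee values, so the species do not stand on equal terms here.

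**Figure D5:**
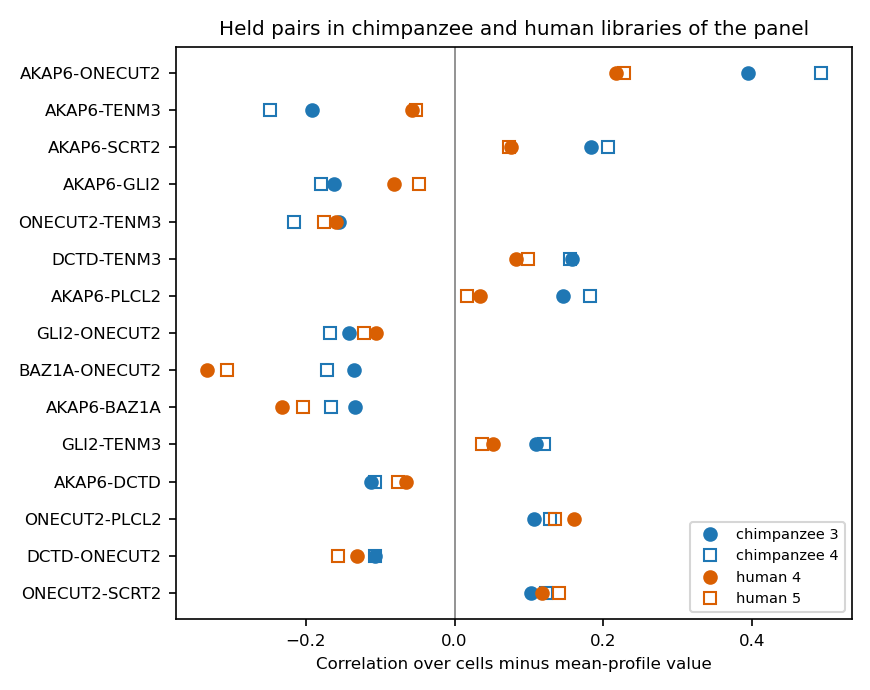
Correlation minus the mean-profile value (x axis, no unit) of the 15 pairs (y axis) in the chimpanzee libraries (blue) and human libraries (orange) of the same panel, 1 symbol per library. All symbols of a pair lie on 1 side of 0, and the species do not overlap in 13 pairs. The share without overlap over all pairs is not given here.

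For the 7 genes that are on both panels (AKAP6, ARHGAP5, BAZ1A, DCTD, NPAS3, PSMA6 and TENM3), 3 more chimpanzee libraries could be read, with cells thinned to 30 UMIs over these genes. Chimpanzee 1 and 2 are of screen replicate 1 and carry the smaller panel, and chimpanzee 5 carries the smaller panel but is of screen replicate 2. Of 21 pairs, 6 had the same direction in all 5 libraries, 3 positive and 3 negative, and 0 (0.0%) were past 0.10 in all. AKAP6 with TENM3 was negative throughout, at -0.124 and -0.134 in chimpanzee 1 and 2, -0.120 and -0.177 in chimpanzee 3 and 4, and -0.0277 in chimpanzee 5. ARHGAP5 with BAZ1A was positive throughout, between 0.0487 and 0.0931, and TENM3 with DCTD was between 0.00921 and 0.111. In cells with unshared barcodes these 6 pairs again had 1 direction each, among 7 that did.

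NPAS3 with AKAP6 differed between the libraries in size. It was at -0.255 in chimpanzee 1 and -0.298 in chimpanzee 2, and at -0.0411, -0.0414 and -0.0269 in chimpanzee 3, 4 and 5. AKAP6 with BAZ1A was at -0.162 and -0.171 in chimpanzee 1 and 2 and at -0.0771 and -0.100 in chimpanzee 3 and 4, but at 0.0393 in chimpanzee 5. Chimpanzee 5 had 0 pairs past 0.10, against 5, 6, 2 and 3 in chimpanzee 1 to 4. Median UMIs over the 7 genes before thinning were 272, 117, 82, 74 and 62 in chimpanzee 1 to 5. For NPAS3 with AKAP6, the value of chimpanzee 5 was nearest to those of chimpanzee 3 and 4, but it is a single library with the lowest median UMIs. In other pairs it lay apart from all others, such as TENM3 with BAZ1A, at -0.0470 against 0.0336 to 0.0923. The part of depth, panel and screen replicate in these differences was not tested.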

How the data were processed

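HyPR-seq UMI counts, with cells in rows and genes and guide barcodes in columns per the file headers, were used as deposited by the authors. All values were whole numbers. Named in the submitters' processing notes are hg38, Bowtie, SAMtools, UMI-tools and fastp. Versions, roles and the filter on barcodes were not given in the sources used here. The members, gene groups and pairs were chosen with earlier results of these data known. Of the 20 genes outside GAPDH, 1 entered totals and pairs but is not reported here. All other genes were named, with every pair that held and those nearest the limit.

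Libraries 3 and 4 of the chimpanzee line had a median of 113 and 105 UMIs outside GAPDH per kept cell, and counting precision was handled by the mean-profile (multinomial) values. Moments over all thinnings to 60 UMIs were computed in closed form with Python 3.11.15, numpy 2.4.6, pandas 2.3.3 and scipy 1.17.1, and tested on simulated data. Classes by level used 1 seeded thinning, and those split by shared barcodes used another. Counting-corrected correlations were given for genes with a variance ratio of at least 1.2 in both libraries. Replicates are libraries numbered in accession order, and species values were compared by an exact permutation test. Alternatives were other thinning depths, scales, cell filters, denominators and limits, and leaving out each library.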

Additional observations from a re-analysis of the deposited data

Results flagged for a closer look

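Over the 7 genes of both panels, AKAP6 with DCTD had 1 library apart from the others among 5 chimpanzee libraries. Its distance from the mean-profile value was 0.0941 in chimpanzee 2, and -0.0393, -0.0378, -0.0110 and -0.0106 in the other 4, by the gap to the nearest value relative to the whole range. Of 21 pairs examined in this way 1 was apart, and chance marks about 1 in 20 groups. In cells with unshared barcodes the value of chimpanzee 2 was 0.0940.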

How the results depend on the processing

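No paired analysis was possible because the pairs come from no test and the replicate numbers, given in accession order, pair no libraries for the exact test between species. The number of pairs that held, 7 positive and 8 negative, depends on the depth of thinning and the limit. It was 2 and 3 at 30 UMIs and 17 and 15 at 100 UMIs, 16 and 15 with shares and no thinning, 19 and 19 at a limit of 0.05, and 3 and 3 at 0.15. It was 13 positive pairs in cells with 1 assigned guide barcode, 13 after subtracting the mean of the barcode class, 4 negative in cells below the median depth and 12 positive in cells at or above it. With Spearman's correlation 5 negative pairs held. Without AKAP6 and ONECUT2 in the denominator, chosen after seeing the data, 1 and 0 held. Of the 15 pairs, 13 contain these genes and could not be counted, and the other 2 fell short of 0.10 in 1 or both libraries. The 1 that held, SCRT2 with PLCL2, was not among the 15. Without chimpanzee replicate 3 or 4 the counts ran from 7 to 11 positive and from 8 to 11 negative. The cause of these changes was not tested. Under none of the alternatives counted here did any of the 15 pairs reverse. Of 253 values for them, leaving out no library, 125 moved by less than the spread between the libraries and 128 by more. Cells with shared barcodes alone, in which some pairs of chimpanzee 3 had the opposite direction, were not among these alternatives. AKAP6 with DCTD, DCTD with ONECUT2 and ONECUT2 with PLCL2 fell short of 0.10 in 1 or both libraries with Spearman's correlation, on a log2 scale and after regression on depth and GAPDH share. With Spearman's correlation, BAZ1A with ONECUT2 (-0.0842 and -0.111) and ONECUT2 with SCRT2 (0.123 and 0.0979) also fell short in 1 library. The number of pairs of the 7 shared genes with 1 direction in all 5 libraries was 6 at 30 and at 20 UMIs. The setting of 100 UMIs also had fewer cells, 3482 in chimpanzee 3 and 2151 in chimpanzee 4, and the part of depth was not tested.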
